A study of Mus musculus with 6 samples.

Results

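The circadian clock genes described here were 10 genes of the core transcriptional clock and its direct output, Arntl, Clock, Npas2, Per1, Per2, Per3, Cry1, Nr1d1, Nr1d2 and Dbp. They were taken by their symbols from the kidney gene expression table and made up 10 of its 17684 genes. All 10 had at least 10 counts in at least 3 libraries and were among the 13679 genes tested.

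Kidney RNA was sequenced from 3 Db and 3 Db + Ato10 mice, with 1 library per sample. All were db/db mice, which carry a defective leptin receptor and become obese and diabetic, of the strain given as C57 BLKS/L, and all were 50 weeks old. Db mice were given normal saline and Db + Ato10 mice were given 10 mg/kg of atorvastatin, each for 40 weeks and by oral gavage. The mice were housed under a light-dark cycle and euthanized with sodium pentobarbital, and the hour of kidney collection is not given in the sources used here.

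The circadian clock is a transcriptional feedback loop that runs in nearly every cell of the body, the tubular cells of the kidney included. ARNTL (BMAL1) pairs with CLOCK or its relative NPAS2 and activates the Per, Cry, Nr1d1, Nr1d2 and Dbp genes through E-box sequences, after which the PER and CRY proteins inhibit that activator and the REV-ERB receptors encoded by Nr1d1 and Nr1d2 repress Arntl and Npas2. In peripheral tissues of the mouse, Arntl and Npas2 transcripts are therefore abundant at the time of day when Dbp and Nr1d1 transcripts are scarce, so the balance between these genes follows the phase of the clock.

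Expected counts, which are the reads estimated for each gene, summed to 13134930, 11381678 and 12426051 in Db replicates 1, 2 and 3, and to 14578023, 14667909 and 13133241 in Db + Ato10 replicates 1, 2 and 3. Levels are given as CPM, counts brought to a common library size by the TMM method, and 3 counts corresponded to between 0.198 and 0.260 CPM. The kidney transcripts Slc34a1 and Umod were abundant in every library, at 354 CPM or more and 1234 CPM or more. Before the clock genes are described, 3 libraries need to be set apart. Over the 4 Y-linked genes Ddx3y, Eif2s3y, Kdm5d and Uty, only 2 counts were found in Db replicate 1, and between 1419 and 2116 in each other library. The mice are described as male. Db + Ato10 replicates 1 and 2 held high levels of leukocyte and fibroblast markers, which are given beside the clock genes below. Fold changes that depended most on a single library are therefore also given with that library left out.

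No clock gene, and no other tested gene, was called between the groups by edgeR's quasi-likelihood test. Dbp, Arntl, Npas2 and Per2, however, differed over 2-fold between single libraries within each group, and the order of the libraries for Per2 was not the same in both groups. The share of all tested genes that differed over 2-fold is given for each pair of libraries below. A gene was called when its fold change exceeded 1.5 and its p-value, adjusted by Benjamini-Hochberg, was under 0.05. By these criteria edgeR's quasi-likelihood test called 0 of the 10 clock genes, against 0% of all tested genes. At an unadjusted p-value under 0.05, edgeR gave 0 of the 10 clock genes, against 16.9% of all tested genes. For 0 of the 10 clock genes did the libraries of the groups fail to overlap, against 23.2% of all tested genes. DESeq2 called 0 of the 10 clock genes, against 6.46% of all tested genes, and limma-voom called 0, against 0%. The log2 fold change was negative for 7 clock genes and positive for 3, with a median of -0.31, and the median over all tested genes was -0.01.

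**Figure D1:**
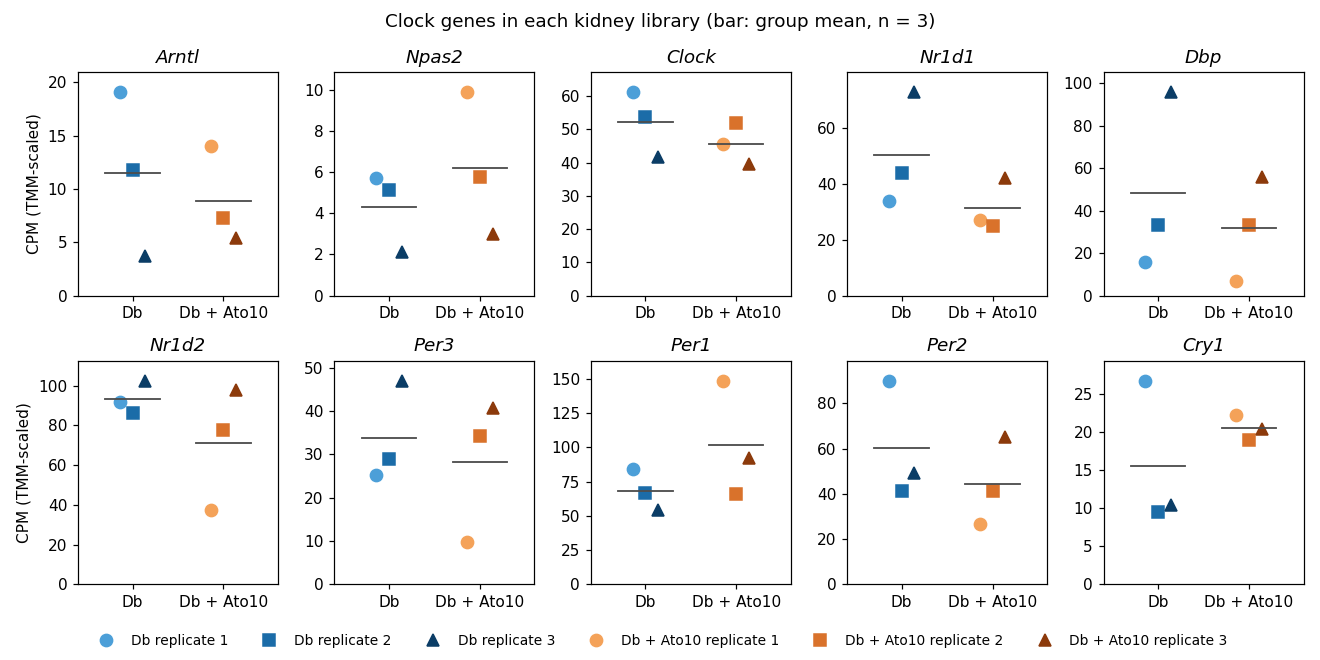
Level of each of the 10 clock genes in CPM (vertical axis, TMM-scaled, from 0) in the 3 Db libraries (blue) and the 3 Db + Ato10 libraries (orange), with each point 1 library and each bar a group mean (n = 3). The groups overlapped for every gene, and Dbp ranged from 15.7 to 95.9 CPM within the Db group and from 6.85 to 56.0 CPM within the Db + Ato10 group.

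Among the activators, Arntl, which encodes the BMAL1 protein, was measured at 19.1, 11.8 and 3.72 CPM in Db replicates 1, 2 and 3. In Db + Ato10 replicates 1, 2 and 3 it was at 14.0, 7.29 and 5.44 CPM. Replicate 1 held the highest level and replicate 3 the lowest in each group, and the Db + Ato10 values lay inside the range of the Db values. The group means were 11.5 ± 7.68 CPM for Db and 8.92 ± 4.52 CPM for Db + Ato10 (SD, n = 3). Arntl had a log2 fold change of -0.37 (SE 0.62), with 2 of 3 Db + Ato10 libraries below the Db mean and an adjusted p-value of 0.757 by the quasi-likelihood test of edgeR after Benjamini-Hochberg adjustment. Without Db replicate 1 it was 0.22.

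Npas2 encodes a relative of CLOCK that can take its place beside ARNTL. It was measured at 5.72, 5.11 and 2.10 CPM in Db replicates 1, 2 and 3, and at 9.88, 5.74 and 2.99 CPM in Db + Ato10 replicates 1, 2 and 3. As for Arntl, replicate 3 was the lowest library of each group, and the groups overlapped. The means were 4.31 ± 1.94 CPM and 6.20 ± 3.47 CPM (SD, n = 3). Npas2 had a log2 fold change of 0.53 (SE 0.54), higher in 2 of 3 Db + Ato10 libraries, with an adjusted p-value of 0.605 by the quasi-likelihood test of edgeR after Benjamini-Hochberg adjustment, and it was 0.03 without Db + Ato10 replicate 1. Leaving out Db replicate 1, Db replicate 3 or Db + Ato10 replicate 3 gave 0.80, 0.20 or 0.86.

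Clock, the usual partner of ARNTL and a gene whose transcript changes little over the day in many tissues, was measured at 61.2, 53.8 and 41.6 CPM in Db replicates 1, 2 and 3. It was at 45.6, 51.9 and 39.5 CPM in Db + Ato10 replicates 1, 2 and 3. The libraries lay closer together than those of Arntl and Npas2, with replicate 3 again the lowest of each group. Between the groups Clock had a log2 fold change of -0.19 (SE 0.19), with 2 of 3 Db + Ato10 libraries below the Db mean of log2 CPM and an adjusted p-value of 0.582 by the quasi-likelihood test of edgeR after Benjamini-Hochberg adjustment. When Db replicate 1 was left out it was -0.05.

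Among the repressors, Per1, a period gene that also responds quickly to hormones and stress, was measured at 84.2, 66.3 and 54.6 CPM in Db replicates 1, 2 and 3. The Db + Ato10 values were 148, 65.7 and 91.9 CPM. Db + Ato10 replicate 1 stood highest and Db replicate 3 lowest, and Db + Ato10 replicate 2 fell among the Db libraries. Per1 had a log2 fold change of 0.58 (SE 0.32), higher in 2 of 3 Db + Ato10 libraries, with an adjusted p-value of 0.384 by the quasi-likelihood test of edgeR after Benjamini-Hochberg adjustment. It was 0.21 without Db + Ato10 replicate 1, and 0.83 when Db + Ato10 replicate 2 was left out.

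Per2, the period gene whose transcript usually peaks after those of Nr1d1 and Dbp, was measured at 89.9, 41.3 and 49.4 CPM in Db replicates 1, 2 and 3. In the Db + Ato10 group it was at 26.7, 41.5 and 65.1 CPM. Db replicate 1 had the highest value and Db + Ato10 replicate 1 the lowest, so the 2 libraries in which Arntl was most abundant were at opposite ends for Per2. For Per2 the log2 fold change was -0.44 (SE 0.41), with -0.02 without Db replicate 1 and -0.82 when Db + Ato10 replicate 3 was left out, lower in 2 of 3 Db + Ato10 libraries, with an adjusted p-value of 0.568 by the quasi-likelihood test of edgeR after Benjamini-Hochberg adjustment.

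Per3, a period gene that in mouse tissues moves closely with Dbp, was measured at 25.2, 29.0 and 46.9 CPM in Db replicates 1, 2 and 3. The Db + Ato10 libraries had 9.75, 34.2 and 40.6 CPM. Here replicate 3 was the highest library of each group, the reverse of Arntl and Npas2, and Db + Ato10 replicate 1 was far below the other 5. Per3 had a log2 fold change of -0.26 (SE 0.52), with 1 of 3 Db + Ato10 libraries below the Db mean and an adjusted p-value of 0.801 by the quasi-likelihood test of edgeR after Benjamini-Hochberg adjustment. Leaving out Db replicate 3 gave 0.06, and leaving out Db + Ato10 replicate 1 gave 0.16.

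Cry1, which encodes a cryptochrome that holds the activator complex in its inhibited state, was measured at 26.7, 9.54 and 10.4 CPM in Db replicates 1, 2 and 3. It was at 22.2, 18.9 and 20.4 CPM in Db + Ato10 replicates 1, 2 and 3. Db replicate 1 was above all other libraries, Db replicates 2 and 3 were below all others, and the Db + Ato10 libraries lay close together between them. The means were 15.6 ± 9.67 CPM for Db and 20.5 ± 1.65 CPM for Db + Ato10 (SD, n = 3). Cry1 had a log2 fold change of 0.40 (SE 0.41), higher in 3 of 3 Db + Ato10 libraries, with an adjusted p-value of 0.604 by the quasi-likelihood test of edgeR after Benjamini-Hochberg adjustment. Without Db replicate 1 it was 1.05, with an adjusted p-value of 0.588 from the same edgeR test. Leaving out Db replicate 2 gave 0.15, and leaving out Db replicate 3 gave 0.18.

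Of the REV-ERB receptors, Nr1d1 (REV-ERB alpha), a repressor of Arntl and Npas2, was measured at 33.9, 43.9 and 72.6 CPM in Db replicates 1, 2 and 3. Its values were 27.1, 24.9 and 42.0 CPM in Db + Ato10 replicates 1, 2 and 3. Replicate 3 was the highest library of each group, and the highest Db + Ato10 value lay between the 2 lower Db values. The means were 50.1 ± 20.1 CPM for Db and 31.3 ± 9.28 CPM for Db + Ato10 (SD, n = 3). For Nr1d1 the log2 fold change was -0.68 (SE 0.34), lower in 3 of 3 Db + Ato10 libraries, and it had the smallest unadjusted p-value of the clock genes (0.0856), with an adjusted p-value of 0.343 by the quasi-likelihood test of edgeR after Benjamini-Hochberg adjustment. Leaving out Db replicate 3 gave -0.31, and leaving out Db replicate 1 gave -0.88.

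Nr1d2 (REV-ERB beta), its partner with a similar role, was measured at 91.7, 86.2 and 102 CPM in Db replicates 1, 2 and 3. The values were 37.3, 77.7 and 97.8 CPM in Db + Ato10 replicates 1, 2 and 3. Within the Db group the libraries were alike, and Db + Ato10 replicate 1 stood below the other 5. Nr1d2 had a log2 fold change of -0.40 (SE 0.34), lower in 2 of 3 Db + Ato10 libraries, with an adjusted p-value of 0.532 by the quasi-likelihood test of edgeR after Benjamini-Hochberg adjustment, and it was -0.08 without Db + Ato10 replicate 1 and -0.70 when Db + Ato10 replicate 3 was left out.

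Dbp, a transcription factor of clock output that acts on D-box sequences, was measured at 15.7, 33.1 and 95.9 CPM in Db replicates 1, 2 and 3. It was at 6.85, 33.5 and 56.0 CPM in Db + Ato10 replicates 1, 2 and 3. Replicate 3 was the highest and replicate 1 the lowest library of each group, the mirror image of Arntl, and replicate 2 had nearly the same value in the 2 groups. The means were 48.2 ± 42.2 CPM and 32.1 ± 24.6 CPM (SD, n = 3). Dbp had a log2 fold change of -0.59 (SE 0.87), with 2 of 3 Db + Ato10 libraries below the Db mean and an adjusted p-value of 0.721 by the quasi-likelihood test of edgeR after Benjamini-Hochberg adjustment. Without Db replicate 3 it was 0.39.

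Levels of the clock genes were compared with each other only in TPM, which accounts for transcript length. Dbp had the highest median TPM over the 6 libraries of the clock genes (38.1), followed by Nr1d2 (33.2), Per1 (27.5) and Nr1d1 (23.5). Per2 (14.2), Cry1 (12.7), Clock (8.58) and Per3 (7.97) came next, and Arntl (5.82) and Npas2 (2.36) were the lowest. In the Db group the mean TPM was 55.1 ± 48.1 for Dbp, 34.8 ± 3.01 for Nr1d2 and 32.1 ± 12.8 for Nr1d1 (SD, n = 3), so the order of these 3 neighbours did not exceed their spread. In the same libraries Dbp ran from 18.5 TPM in Db replicate 1, below Nr1d2 at 34.1 TPM, to 110 TPM in Db replicate 3, above Nr1d2 at 38.1 TPM.

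Whether the clock differed between single libraries was first read from pairs of libraries within a group. From Db replicate 1 to Db replicate 3, Dbp was 6.09-fold higher, with a 95% exact binomial interval of 5.24 to 7.12 for counting error only. Arntl was 5.13-fold lower in Db replicate 3 than in Db replicate 1 (3.73 to 7.20). Npas2 was 2.72-fold lower in Db replicate 3 (1.72 to 4.45). Output and activator genes thus stood in opposite order in these 2 libraries, beyond what counting error gives. Nr1d1 was 2.14-fold higher in Db replicate 3 (1.91 to 2.41) and Per3 was 1.86-fold higher (1.62 to 2.14). Cry1 was 2.56-fold lower in Db replicate 3 (2.09 to 3.16). Nr1d2, at 1.12-fold (1.03 to 1.21), differed least between them.

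Within the Db group, the opposite order of Dbp and Arntl did not depend on Db replicate 1, the library without Y-linked transcripts. Between Db replicate 2 and Db replicate 3, Dbp was 2.90-fold higher in replicate 3 (2.58 to 3.26). Arntl was 3.17-fold lower in Db replicate 3 than in Db replicate 2 (2.26 to 4.53). Npas2 was 2.44-fold lower there (1.51 to 4.03). Cry1, at 1.09-fold (0.841 to 1.42), did not differ between Db replicates 2 and 3 beyond counting error, so its spread in the Db group came from Db replicate 1.

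In the Db + Ato10 group, Dbp, Per3, Npas2 and Arntl also differed between replicate 1 and replicate 3. Dbp was 8.18-fold higher in Db + Ato10 replicate 3 than in replicate 1 (6.65 to 10.1) and Per3 was 4.17-fold higher (3.47 to 5.04). Npas2 was 3.30-fold lower in Db + Ato10 replicate 3 (2.30 to 4.84). Arntl was 2.58-fold lower (1.96 to 3.44). Nr1d2 was 2.62-fold higher (2.37 to 2.90) and Per2 2.44-fold higher (2.16 to 2.75) in Db + Ato10 replicate 3. Cry1, at 0.919-fold (0.779 to 1.08), did not differ there beyond counting error. Between Db + Ato10 replicates 2 and 3, the differences of Dbp, Npas2 and Arntl were smaller. Dbp was 1.67-fold higher in replicate 3 (1.49 to 1.88) and Npas2 was 1.92-fold lower (1.29 to 2.89). Arntl, at 1.34-fold lower (0.983 to 1.84), did not differ beyond counting error. In this group the opposite order of Dbp and Arntl beyond counting error thus rested on replicate 1. The difference between the groups in these pairs was not tested.

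**Figure D2:**
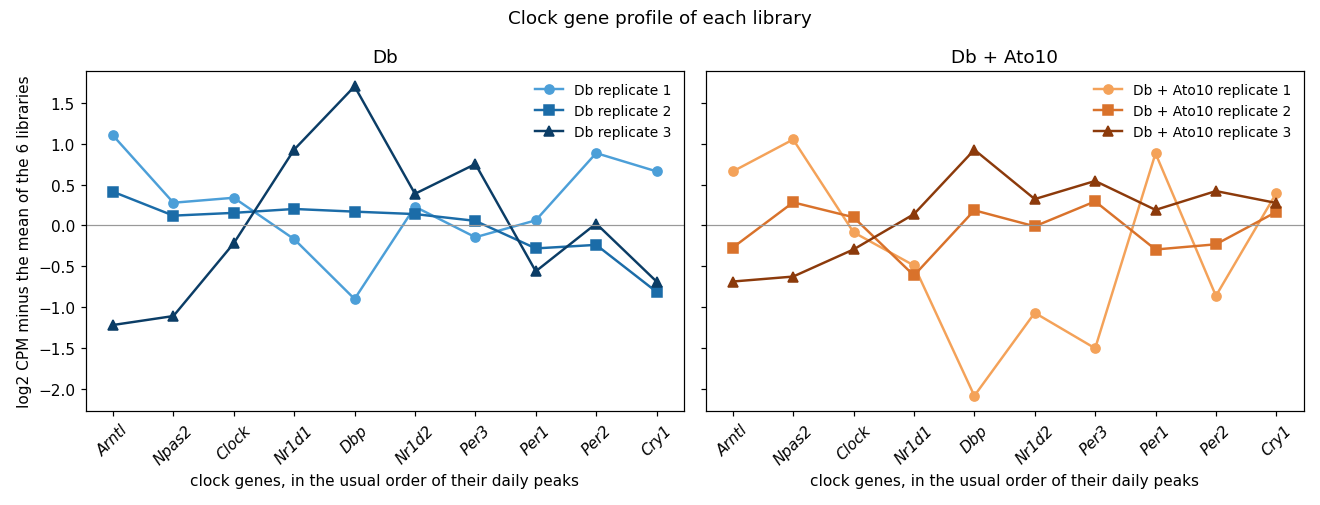
Log2 CPM of each clock gene minus its mean over the 6 libraries (vertical axis), with the genes along the horizontal axis in the usual order of their daily peaks and each line 1 library, for the Db group (left) and the Db + Ato10 group (right). Replicate 3 of each group was below 0 for Arntl, Npas2 and Clock and above 0 for Nr1d1, Dbp, Nr1d2 and Per3, and Db + Ato10 replicate 1 had the lowest Dbp (-2.08).

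A clock contrast was then computed for each library as the mean log2 CPM of Dbp, Nr1d1, Nr1d2 and Per3 minus the mean log2 CPM of Arntl, Npas2 and Clock. Only differences of this value between libraries carry meaning, since the genes differ in length. The contrast was 0.81, 1.54 and 3.42 in Db replicates 1, 2 and 3, and -0.20, 1.56 and 2.65 in Db + Ato10 replicates 1, 2 and 3. Each group thus held a library with a low, a middle and a high contrast, and Db replicate 2 and Db + Ato10 replicate 2 had almost the same value. The range within a group was 2.60 in the Db group and 2.84 in the Db + Ato10 group. The means were 1.92 ± 1.34 and 1.34 ± 1.43 (SD, n = 3), so the difference of -0.59 between the groups was smaller than the spread within either. Leaving out Db replicate 3 or Db + Ato10 replicate 1 turned it to 0.16 or 0.18. Leaving out Db replicate 1 or Db + Ato10 replicate 3 gave -1.14 or -1.24, and leaving out Db + Ato10 replicate 2 gave -0.70. Because an exact permutation test of 3 against 3 libraries cannot give a p-value under 0.1, and the genes were chosen as a list, no test was made of the contrast.

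Distances between libraries were taken as the root mean square difference of log2 CPM over the 10 clock genes. Db replicates 1 and 3 were 1.39 apart over the clock genes and 0.50 apart over all tested genes. By this distance these 2 libraries were the nearest pair of the Db group over the transcriptome. By the median absolute difference they were not, at 0.213 against 0.208 for Db replicates 2 and 3. Over the clock genes Db replicates 1 and 3 were the farthest pair of the group by both measures. Of the 10 clock genes, 5 (Arntl, Npas2, Nr1d1, Dbp and Cry1) differed by over 1 on the log2 scale between them, against 4.55% of all tested genes. Db replicates 2 and 3 were 0.89 apart over the clock genes and 0.51 over all tested genes, and 3 clock genes (Arntl, Npas2 and Dbp) differed by over 1, against 5.86% of all tested genes. Db replicates 1 and 2 were 0.73 apart over the clock genes and 0.58 over all tested genes, and 3 clock genes (Dbp, Per2 and Cry1) differed by over 1, against 7.2% of all tested genes.

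The Db + Ato10 libraries differed more from each other over the whole transcriptome. Db + Ato10 replicates 1 and 3 were 1.49 apart over the clock genes and 1.17 over all tested genes, with 6 clock genes differing by over 1, against 23.2% of all tested genes. Db + Ato10 replicates 1 and 2 were 1.13 apart over the clock genes and 0.84 over all tested genes, with 4 clock genes differing by over 1, against 16.4% of all tested genes. Db + Ato10 replicates 2 and 3 were 0.56 apart over the clock genes and 0.73 over all tested genes, with 0 clock genes differing by over 1, against 12.3% of all tested genes. By the median absolute difference this last pair was 0.45 apart over the clock genes and 0.29 over all tested genes.

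Between the groups, the nearest pair over the clock genes was Db replicate 2 and Db + Ato10 replicate 2, at 0.47, although they were 0.84 apart over all tested genes. Db replicate 3 and Db + Ato10 replicate 3 followed at 0.59. In each of these pairs 0 clock genes differed by over 1, against 14.2% of all tested genes for the replicates 2 and 5.23% for the replicates 3. The farthest pair over the clock genes was Db replicate 3 and Db + Ato10 replicate 1, at 1.89. The median distance over the clock genes was 1.01 for the 6 pairs within a group and 0.93 for the 9 pairs between groups. Over all tested genes it was 0.66 within a group and 1.00 between groups. Taken singly, the median over the clock genes was 0.89 within the Db group and 1.13 within the Db + Ato10 group. By the pooled medians, clock genes of libraries from different groups were no farther apart than those from the same group, whereas the transcriptomes were. The latter came from Db + Ato10 replicates 1 and 2, since Db + Ato10 replicate 3 was 0.61, 0.48 and 0.54 from Db replicates 1, 2 and 3 over all tested genes. The pairs share libraries, and the difference was not tested.

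The spread of single genes showed the same. The SD of log2 CPM within the Db group was 1.30 for Dbp, larger than in 99.1% of tested genes. For Arntl it was 1.19, larger than in 98.9% of tested genes. Cry1, at 0.82, and Npas2, at 0.76, exceeded 96.0% and 95.3% of tested genes in the Db group. The lowest SD in the Db group was that of Nr1d2 (0.13). In all, 9 of the 10 clock genes had an SD above the median of all tested genes in the Db group, and their own median was 0.57 beside 0.19 for all tested genes.

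In the Db + Ato10 group the SD was 1.57 for Dbp, larger than in 96.5% of tested genes, and 1.11 for Per3, larger than in 91.4%. Cry1, at 0.11, varied less than most genes in that group. Here 8 of the 10 clock genes were above the median of all tested genes, and their median was 0.66 beside 0.32. The edgeR dispersion of Dbp was 0.506, where the trend for genes of its level was 0.0795. This spread entered the SE of each fold change above.

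Other clock components are proteins that bind, modify or degrade the core factors, and 15 of the 16 in the list were tested. In edgeR 1 was higher and 1 was lower at an unadjusted p-value under 0.05, against 16.9% of all tested genes, and 0 were called, against 0%. The casein kinase Csnk1e, which phosphorylates PER proteins, was at 21.3, 22.6 and 15.9 CPM in the Db libraries and at 53.2, 32.4 and 22.4 CPM in the Db + Ato10 libraries. Csnk1e had a log2 fold change of 0.85 (SE 0.33), and 0.47 without Db + Ato10 replicate 1, higher in 3 of 3 Db + Ato10 libraries, with an adjusted p-value of 0.280 by the quasi-likelihood test of edgeR after Benjamini-Hochberg adjustment, although the groups overlapped. Btrc, part of a ubiquitin ligase that targets PER proteins, was at 33.7, 36.2 and 37.2 CPM in the Db libraries and at 23.6, 25.7 and 31.3 CPM in the Db + Ato10 libraries. Its log2 fold change was -0.41 (SE 0.15), lower in 3 of 3 Db + Ato10 libraries, with an adjusted p-value of 0.265 by the quasi-likelihood test of edgeR after Benjamini-Hochberg adjustment.

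The groups did not overlap for 3 of these 15 genes, Btrc, Csnk1d and Timeless, beside the 23.2% of all tested genes given above. Csnk1d, the other PER kinase, was at 114, 95.6 and 95.2 CPM in the Db libraries and at 126, 138 and 117 CPM in the Db + Ato10 libraries. Timeless was at 2.38, 3.64 and 3.07 CPM in the Db libraries and at 6.92, 4.39 and 3.70 CPM in the Db + Ato10 libraries. The log2 fold changes were 0.32 (SE 0.14) for Csnk1d and 0.72 (SE 0.34) for Timeless, and neither was called. Without Db + Ato10 replicate 1 that of Timeless was 0.43.

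Nfil3, a repressor that binds D-box sequences in competition with DBP, was at 28.7, 16.0 and 7.27 CPM in Db replicates 1, 2 and 3. It was at 104, 18.2 and 23.1 CPM in Db + Ato10 replicates 1, 2 and 3. Within the Db group it was highest where Dbp was lowest, and Db + Ato10 replicate 1 held both the highest Nfil3 and the lowest Dbp of the 6 libraries. The log2 fold change of Nfil3 was 1.48 (SE 0.79), with an adjusted p-value of 0.368 by the quasi-likelihood test of edgeR after Benjamini-Hochberg adjustment, and it was 0.26 without Db + Ato10 replicate 1.

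Cry2, the other cryptochrome gene, was at 30.1, 25.0 and 34.3 CPM in the Db libraries and at 21.9, 30.5 and 32.1 CPM in the Db + Ato10 libraries. The groups overlapped, and its log2 fold change of -0.08 (SE 0.20) became 0.08 without Db + Ato10 replicate 1 and 0.03 when Db replicate 3 was left out. The E-box repressor genes Bhlhe40 and Bhlhe41 had log2 fold changes of 0.39 (SE 0.31) and 0.38 (SE 0.28), and that of Bhlhe40 was 0.01 without Db + Ato10 replicate 1. That of Bhlhe41 was 0.22 without Db replicate 1. Ciart, another repressor of the activator complex, was at 4.61, 2.95 and 6.79 CPM in the Db libraries and at 4.48, 2.97 and 8.19 CPM in the Db + Ato10 libraries, with replicate 3 the highest of each group. Its log2 fold change of 0.12 (SE 0.47) became -0.13 when Db replicate 2 was left out and -0.35 when Db + Ato10 replicate 3 was left out.

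Of the 5 clock output genes in the list all were tested, 0 reached an unadjusted p-value under 0.05 in edgeR, against 16.9% of all tested genes, and 0 had groups that did not overlap, against 23.2%. Their median log2 fold change was -0.42. Tef, a relative of Dbp, was at 317, 284 and 421 CPM in the Db libraries and at 84.7, 243 and 373 CPM in the Db + Ato10 libraries. Hlf, the remaining member of that family, was at 207, 161 and 200 CPM in the Db libraries and at 22.5, 106 and 174 CPM in the Db + Ato10 libraries. Replicate 3 held the highest Tef of each group, as for Dbp, while Hlf did not follow Dbp within the Db group. The log2 fold changes were -0.55 (SE 0.50) for Tef and -0.91 (SE 0.64) for Hlf, with adjusted p-values of 0.563 and 0.466 by the quasi-likelihood test of edgeR after Benjamini-Hochberg adjustment, and without Db + Ato10 replicate 1 they were -0.14 and -0.43. When Db + Ato10 replicate 3 was left out they were -1.05 and -1.55.

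Likeness to Arntl and to Dbp was measured over the 6 libraries as the root mean square difference of log2 CPM after each gene was centred on its own mean. The 5 genes nearest to Arntl were Rergl (0.31), Gadd45g (0.34), Zfp648 (0.34), Col24a1 (0.35) and Olfr558 (0.35). Npas2 was at place 15 of 13678 genes in this order, and Clock was at place 347. The 5 genes nearest to the mirror image of Arntl were Nxph4 (0.23), Pzp (0.27), Rundc3b (0.32), D330045A20Rik (0.40) and Nat8f4 (0.41). Among the clock genes Per3 came first, at place 130, followed by Nr1d1 at place 298, Dbp at place 527 and Nr1d2 at place 1354.

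The 5 genes nearest to Dbp were Sucnr1 (0.40), Mroh7 (0.41), Ube2u (0.47), Cyp2d9 (0.48) and Tmem174 (0.49). Per3 was at place 17 of 13678 and Tef at place 62, while Nr1d2 and Nr1d1 were at places 415 and 594. The genes nearest to the mirror image of Dbp were Gem (0.35), F420015M19Rik (0.38), Nfil3 (0.47), Col24a1 (0.51) and Apold1 (0.52). Npas2 was at place 14, Arntl at place 37 and Clock at place 3379 in that order. The likeness is a description over 6 libraries, in which many genes share a pattern through Db + Ato10 replicate 1.

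Of 9 lists of cell type markers, 4 had CPM sums in the order of the clock contrast or its reverse in the Db + Ato10 group. They were those of the proximal tubule, leukocytes, fibroblasts and squamous epithelium. Over only 3 libraries, unrelated values often fall in a given order or its reverse. Counts of lists with such an order, here and below, are therefore descriptions only. In these bulk samples, fewer cells of a type and less RNA per cell cannot be told apart. The 6 proximal tubule markers, all tested and with the most reads on Slc34a1, summed to 8502, 5637 and 7979 CPM in Db replicates 1, 2 and 3 and to 885, 3529 and 7785 CPM in Db + Ato10 replicates 1, 2 and 3. The sum was lowest in the library with the lowest contrast in the Db + Ato10 group, whereas in the Db group the libraries with the lowest and the highest contrast had similar sums. The 6 leukocyte markers, 4 of them tested and with the most reads on Lyz2, summed to 30.0, 85.6 and 56.4 CPM in the Db libraries and to 3193, 647 and 92.3 CPM in the Db + Ato10 libraries. The 5 fibroblast markers, all tested and with the most reads on Col1a2, summed to 67.5, 129 and 84.7 CPM and to 1389, 574 and 185 CPM. The 6 squamous epithelium markers, 4 of them tested and with the most reads on Krt5, summed to 2.70, 3.55 and 2.34 CPM and to 122, 77.9 and 32.0 CPM, with Krt14, Krt6a and Krt13 at 0 in at least 1 library. No other marker list held a gene at 0. The part of these cell types in the clock gene values was not tested.

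The CPM sums of the other 5 marker lists did not follow the contrast within the Db + Ato10 group. Within the Db group the CPM sums of 0 of the 9 lists followed the contrast. By another measure, the mean log2 CPM relative to the Db mean, 4 lists were in the order of the contrast or its reverse there. It was 0.45, -0.21 and -0.24 for podocyte, 1.25, -0.61 and -0.65 for hepatocyte, 0.15, -0.04 and -0.11 for squamous epithelium and -0.03, 0.00 and 0.03 for thick ascending limb markers. Single genes followed these means in part, since among hepatocyte markers only Ttr and among thick ascending limb markers only Cldn10 had the order, Podxl did not have that of the podocyte markers, Sprr1a and Trp63 did not have that of the squamous markers, and Krt5 and Krt14 lay near or below 3 counts. The 5 thick ascending limb markers, with the most reads on Umod, summed to 8593, 9370 and 8727 CPM in the Db libraries and to 4687, 2239 and 6166 CPM in the Db + Ato10 libraries. The 3 markers of the distal convoluted tubule, with the most reads on Slc12a3, summed to 1535, 2156 and 1241 CPM and to 740, 432 and 974 CPM. The 5 collecting duct markers, with the most reads on Aqp2, summed to 690, 493 and 871 CPM and to 536, 297 and 554 CPM. The 4 podocyte markers, with the most reads on Podxl, summed to 493, 306 and 318 CPM and to 480, 147 and 314 CPM. The 3 hepatocyte markers Ttr, Alb and Apoa2 summed to 141, 29.6 and 31.0 CPM and to 6.06, 135 and 27.0 CPM. Most of the sum in Db replicate 1 and Db + Ato10 replicate 2 was Ttr, at 103 and 132 CPM. All genes of these 5 lists were tested.

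Among other genes with a daily rhythm, the 7 glucocorticoid-responsive genes had a list mean in the reverse order of the clock contrast within the Db group, although Klf9 and Klf15 did not follow it. The mean log2 CPM of the list relative to the Db mean was 0.65, 0.03 and -0.68 in Db replicates 1, 2 and 3 and 0.15, -0.16 and 0.10 in the Db + Ato10 libraries, so the library with the highest Dbp had the lowest value in the Db group and no such order held in the Db + Ato10 group. The part of glucocorticoids in the clock gene values was not tested. Zbtb16, chosen after its values were seen, was at 79.6, 45.3 and 14.0 CPM in the Db libraries and at 60.5, 47.3 and 54.9 CPM in the Db + Ato10 libraries. Fkbp5 was at 287, 235 and 118 CPM and at 250, 210 and 280 CPM, and Tsc22d3 was at 110, 72.5 and 52.0 CPM and at 158, 78.9 and 66.8 CPM. In edgeR 0 of the 7 reached an unadjusted p-value under 0.05, against 16.9% of all tested genes, and the median log2 fold change was 0.21. Dusp1 had the largest log2 fold change of the list (0.94, SE 0.79), and it was -0.25 without Db + Ato10 replicate 1. Those of Fkbp5 (0.21, SE 0.33) and Tsc22d3 (0.38, SE 0.41) turned to -0.08 when Db replicate 3 was left out and to -0.09 when Db + Ato10 replicate 1 was left out, in that order.

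Stress-responsive genes differed between libraries as well. Of 8 immediate early genes, 6 were higher at an unadjusted p-value under 0.05 in edgeR. Of the 13679 tested genes 1533 were higher at that level, and 16.9% reached it in either direction. In the list 0 were called, against 0%, and the median log2 fold change was 1.82. Their mean log2 CPM relative to the Db mean was 3.07, 1.08 and 0.47 in Db + Ato10 replicates 1, 2 and 3. This was the order of the leukocyte and fibroblast marker sums, and the part of these cell types was not tested. Junb was at 10.3, 18.1 and 12.9 CPM in the Db libraries and at 288, 53.6 and 38.3 CPM in the Db + Ato10 libraries, so Db + Ato10 replicate 1, with the highest Per1, also had the highest Junb. Junb had a log2 fold change of 3.20 (SE 0.83), and 1.75 without Db + Ato10 replicate 1, higher in 3 of 3 Db + Ato10 libraries, with an adjusted p-value of 0.239 by the quasi-likelihood test of edgeR after Benjamini-Hochberg adjustment, 0.0382 by the same test without Db + Ato10 replicate 3 and 0.0013 by DESeq2. Of 6 temperature-responsive genes, 1 was higher and 1 lower at an unadjusted p-value under 0.05, against 16.9% of all tested genes, with a median of -0.43, and the chaperone gene Hsph1 was at 301, 79.2 and 101 CPM in the Db libraries and at 52.0, 51.7 and 75.8 CPM in the Db + Ato10 libraries. Its log2 fold change was -1.42 (SE 0.52), and it was -0.58 without Db replicate 1. The mean log2 CPM of the temperature-responsive list relative to the Db mean was 0.57, -0.15 and -0.42 in the Db libraries, in the reverse order of the clock contrast, but of its 6 genes only Hspa8 had this order.

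Renal genes linked to the clock, 9 transport and regulatory genes whose levels vary over the day or with loss of clock genes, were compared next. In edgeR 2 were higher and 4 were lower at an unadjusted p-value under 0.05, against 16.9% of all tested genes, and 0 were called, against 0%. The groups did not overlap for 6 of the 9, against 23.2% of all tested genes. The largest log2 fold change was that of Fxyd5, a regulator of the sodium pump, at 2.88 (SE 0.91), and 1.17 without Db + Ato10 replicate 1. It was at 12.2, 15.4 and 13.4 CPM in the Db libraries and at 241, 41.5 and 19.8 CPM in the Db + Ato10 libraries, higher in 3 of 3, with an adjusted p-value of 0.239 by the quasi-likelihood test of edgeR after Benjamini-Hochberg adjustment, 0.0430 by the same test without Db + Ato10 replicate 3 and 0.0106 by DESeq2. The 4 lower genes were Slc9a3, Slc12a3, Wnk1 and Avpr2. Tubule markers were lower as well at an unadjusted p-value under 0.05 in edgeR, where 781 of the 13679 tested genes were lower. They were 4 of 5 for the thick ascending limb, 2 of 3 for the distal convoluted tubule and 3 of 5 for the collecting duct. For the proximal tubule they were 0 of 6. Slc12a3 and Aqp2 belong to these marker lists too. Fxyd5 stood in the same order over the Db + Ato10 libraries as the leukocyte marker sum. None of these 9 genes was a core clock gene, and their part in the clock contrast was not tested.

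Of the clock genes, 2 overlap another gene of the expression table, and their reads could be mixed, since it is not stated whether counting used strand. Nr1d1 overlaps Thra, which was at 45.1, 61.8 and 61.3 CPM in the Db libraries and at 54.0, 49.6 and 54.4 CPM in the Db + Ato10 libraries. Dbp overlaps Sphk2, which was at 43.6, 55.0 and 54.4 CPM in the Db libraries and at 50.3, 43.5 and 49.5 CPM in the Db + Ato10 libraries. Neither neighbour varied between libraries as its clock gene did, and reads shared by the 2 genes of a pair cannot be told apart.

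Transcripts were estimated separately, and 22 transcripts of the 10 clock genes were among 30175 tested. By edgeR 0 of the 22 were called, against 0% of all tested transcripts, and 1 reached an unadjusted p-value under 0.05, against 8.19%. The main Dbp transcript, NM_016974.3, was at 11.5, 29.6 and 80.0 CPM in the Db libraries and at 5.08, 25.0 and 46.9 CPM in the Db + Ato10 libraries. The main Arntl transcript, NM_007489.4, was at 12.2, 6.64 and 2.25 CPM and at 7.61, 4.88 and 3.86 CPM. Each thus repeated the pattern of its gene. The transcript below the threshold was NM_001289877.1 of Per3, at 2.93, 5.60 and 22.5 CPM in the Db libraries and at 0 in the 3 Db + Ato10 libraries, with an adjusted p-value of 0.375 by the quasi-likelihood test of edgeR after Benjamini-Hochberg adjustment. Another Per3 transcript, NM_011067.3, was at 7.85, 8.79 and 0 CPM in the Db libraries and at 6.52, 21.8 and 15.7 CPM in the Db + Ato10 libraries, so the estimates of the 2 transcripts moved in opposite directions and their separate levels are uncertain.

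The promoter windows of the clock genes, taken from RefSeq on GRCm38.p6 and reaching from 250 bases before to 50 bases after a gene's start, were found for 9 of the 10 genes; Per2 was the other. They were searched on both strands for the E-box CACGTG, the D-box TTANGTAA, the REV-ERB element TAGGTNA and the cyclic AMP element TGACGTCA. Of all 32851 windows of the table, 7.15% held the E-box, 2.32% the D-box, 8.29% the REV-ERB element and 1.79% the cyclic AMP element. Matches lay in 4 of the 9 genes, and a match is a description of letters and not of a bound site. They are shown because Arntl and Per3 stood in opposite order across the libraries of each group. A further reason is that the factors that read these elements are themselves among the genes above. Each stretch is written from 5′ to 3′ on the strand of its gene, with the match in capitals. The Arntl stretches lie on the plus strand at chr7:113207494-113207523 and chr7:113207530-113207559, the Per3 stretches on the minus strand at chr4:151044852-151044881 and chr4:151044805-151044834, the Per1 stretch on the plus strand at chr11:69098771-69098800 and the Cry1 stretch on the minus strand at chr10:85185097-85185126.
Arntl, REV-ERB element: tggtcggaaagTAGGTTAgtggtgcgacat
Arntl, REV-ERB element: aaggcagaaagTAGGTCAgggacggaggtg
Per3, D-box: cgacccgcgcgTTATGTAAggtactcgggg
Per3, D-box: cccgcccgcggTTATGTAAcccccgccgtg
Per1, E-box: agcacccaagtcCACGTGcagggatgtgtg
Cry1, E-box: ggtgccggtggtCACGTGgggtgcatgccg

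Arntl held 2 REV-ERB elements, of which 1 spans an annotated start and the other lies downstream of it, and Per3 held 2 D-boxes upstream of its start. The E-boxes of Per1 and Cry1 also lie upstream of the start. The windows of Npas2, Clock, Nr1d1, Dbp and Nr1d2 held 0 matches to these letters.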

How the data were processed

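Kidney RNA of 3 Db and 3 Db + Ato10 mice was sequenced on the BGISEQ-500 platform. Groups, replicate numbers, ages and doses were taken from the sample labels. A treatment field that names atorvastatin for all 6 samples was set aside for the field that separates saline from atorvastatin. The submitters' processing notes name HISAT, Bowtie2 2.2.5 and the build mm9. For genes and transcripts the authors deposited expected counts, and for genes also FPKM and TPM. Of the expected counts of genes, 91.3% were whole. Columns that hold the authors' group averages were not used.

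Expected counts were rounded and tested with edgeR 4.0.16 in R 4.3.3 (TMM, quasi-likelihood F test, installed defaults), with Benjamini-Hochberg adjustment over the 13679 genes that reached 10 counts in 3 or more libraries. A call needed a fold change over 1.5 and an adjusted p-value under 0.05, the criteria of the study. Levels in CPM use the TMM-scaled library size, with a prior count of 2 added before log2. The fit was tested on simulated data with the same dispersion for every gene. That dispersion was below the median of the tested genes (0.0655) and of the clock genes (0.140). The simulation therefore does not show how well changes are found at the spread of the clock genes. Counting intervals were exact (Clopper-Pearson, scipy 1.17.1) and cover counting error only. No library pair held identical counts. Nothing used here states how far the samples of a group were handled separately, so p-values measure the spread between these samples.

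The clock genes and the other lists were chosen with earlier results of these data known. The named genes were the 10 clock genes, the other clock components and output genes with an unadjusted p-value under 0.05 or with groups that did not overlap, 7 further clock genes in any case, the gene with the largest fold change of each remaining list, Tsc22d3 and Fkbp5, the 5 genes nearest to Arntl and Dbp and to their mirror images, and the most abundant marker of each cell type. Alternatives were DESeq2 1.42.0, limma-voom and limma 3.58.1 on log2(FPKM + 1) or log2(TPM + 1), upper-quartile normalization, other count filters, the replicate number as a block, a prior count of 0.5, other gene sets for the contrast, and each library left out. The alternatives for the count between Db replicates 1 and 3, and the counts of groups that do not overlap with a library left out, were chosen after the data had been seen. Overlapping genes and promoters came from RefSeq tables of GRCm38.p6, another build than the one in the labels, so coordinates belong to the promoter table only. Python 3.11.15 with matplotlib 3.10.9 drew the figures.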

Additional observations from a re-analysis of the deposited data

How the results depend on the processing

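The number of clock genes called was 0 under every alternative run: DESeq2, limma-voom, upper-quartile normalization, both other count filters, the replicate block, limma on log2(FPKM + 1) and log2(TPM + 1), no fold change threshold, and each library left out. Replicate numbers were not taken to pair the samples, since the deviations of libraries with the same number correlated at -0.151, 0.0613 and 0.208. The clock contrast nevertheless rose from replicate 1 to replicate 3 in each group. The unadjusted p-value of Dbp in edgeR's quasi-likelihood test was 0.521, and it was 0.0682 with the replicate block. With the replicate block, 1 clock gene (Nr1d1) reached an unadjusted p-value under 0.05, against 13.6% of all tested genes, and 0 genes in all were called. With 1 library left out, between 0 and 2 clock genes reached that level, and the 2 were Cry1 and Nr1d1 without Db replicate 1, against 7.68% of all tested genes. The groups did not overlap for between 0 and 3 clock genes with 1 library left out, the 3 being Npas2, Nr1d1 and Nr1d2 without Db + Ato10 replicate 3, where the same held for 50.3% of all tested genes. Leaving out a library gives groups of 3 and 2, in which groups separate more often.

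Over all tested genes, edgeR called 0, DESeq2 called 884 and edgeR without Db + Ato10 replicate 3 called 1106. The number at an unadjusted p-value under 0.05 was 2314, and it was 1043, 1113, 1534 and 4038 without Db replicate 1, Db replicate 3, Db + Ato10 replicate 2 and Db + Ato10 replicate 3.

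Of 140 alternative values of the clock genes' fold changes, 136 kept their direction and stayed uncalled, and 4 changed sign. With a library left out, the log2 fold change ran from -0.85 to 0.22 for Arntl, from -1.25 to 0.39 for Dbp and from -0.61 to 0.16 for Per3. Of the 17 other named genes, 5 changed sign, and with a library left out it ran from -0.19 to 0.0800 for Cry2, -0.35 to 0.46 for Ciart, -0.0925 to 0.72 for Tsc22d3, -0.0815 to 0.50 for Fkbp5 and -0.25 to 1.72 for Dusp1. For Ciart it was -0.0234 with limma on log2(TPM + 1). The causes were not tested. The clock contrast between the groups lay between -0.78 and -0.45 under other units, scalings and gene sets, and between -1.24 and 0.18 with a library left out. The order of the libraries by contrast was the same under the other units and scalings. With Dbp and Nr1d1 against Arntl and Npas2, Db replicate 2 (2.27) and Db + Ato10 replicate 2 (2.13) changed places. Between Db replicates 1 and 3, 5 clock genes differed by over 1 with upper-quartile normalization or a prior count of 0.5, and 4 on the log2(TPM + 1) scale. With 46 counts of Arntl and 26 of Npas2 in Db replicate 3, depth limits the low values of these genes.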

Other observations

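The order of Per2 and Nr1d1, a pair chosen after the values were seen, separated the libraries in another way than the clock contrast. The log2 CPM of Per2 minus that of Nr1d1 was 1.40, -0.09 and -0.55 in Db replicates 1, 2 and 3 and -0.02, 0.73 and 0.63 in Db + Ato10 replicates 1, 2 and 3. Db replicate 3 and Db + Ato10 replicate 3, which had the highest contrasts, thus differed in this value, and so did Db replicate 1 and Db + Ato10 replicate 1, which had the lowest. These differences were not tested.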
